A study of Homo sapiens with 47 samples.

Results

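The genes described here are 10 genes of the TRAIL and death receptor pathway among the 58395 genes of a ribosomal RNA-depleted RNA-seq table. They were chosen by symbol because RNA of TNFRSF10D, a decoy receptor for TRAIL, was lost in cells with mutant EAF1, and its relatives and signalling partners were added by gene identity. The values of TNFRSF10D therefore selected the list and are given as a description, with no test. The libraries came from HEK293T, a human embryonic kidney cell line that carries the SV40 large T antigen, and from a line made from it in which CRISPR knock-in replaced a short stretch of EAF1 with alanines on both alleles. The methods name 1 EAF1-mutant line, so the effect of the mutation and the properties of that line cannot be told apart. EAF1 is a subunit of the little elongation complex, which works with RNA polymerase II and is brought to genes by Mediator. There were 3 libraries of each group among the 47 samples of the series. Library totals were 59137210, 52541541 and 55637032 counts for wild type, and 57198018, 53369621 and 66611451 for the mutant line. The paper calls its replicates biological and its reporting summary does not name RNA-seq among the assays with fewer than 3 repeats, but neither ties these libraries to separate cultures; where libraries shared a culture, p values measure only the spread between these libraries, which may be technical.

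TRAIL, encoded by TNFSF10, is a ligand of the TNF family that can start apoptosis from the cell surface. It binds death receptors with an intracellular death domain, encoded by TNFRSF10A and TNFRSF10B, and decoy receptors that lack a working death domain, encoded by TNFRSF10C and TNFRSF10D. Bound death receptors, and likewise FAS, gather the adaptor FADD and procaspase-8 (CASP8), while c-FLIP (CFLAR) enters the same complex and in most settings restrains CASP8. TNFRSF1A is the death-domain receptor for TNF. The 4 genes of the TRAIL receptors lie in a cluster on the short arm of chromosome 8.

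Values per library are counts scaled to a library size adjusted by the TMM method of edgeR, in CPM. A gene is called higher or lower in EAF1-mutant cells when its adjusted p in edgeR's quasi-likelihood test was under 0.01 and its log2 fold change was above 0.5 or below -0.5. Of 28025 genes tested, 9.36% were called lower and 11% higher, which is 2624 and 3071 genes. The scaling matters for this split: without TMM, on library totals, 1840 were lower and 4169 higher, and the median over the tested genes moved from 0.01 to 0.13 on the log2 scale. Of the 10 members, 8 passed the filter on low counts. TNFRSF10B and CFLAR were called higher. The contrast is the one that chose the list, so nothing is read from this count. The median log2 fold change of the 8 was -0.03, against 0.01 over all tested genes, and 0.09 against 0.13 with library totals.

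TNFRSF10D (ENSG00000173530), the decoy receptor with a truncated death domain, had 315, 283 and 242 counts in the wild-type libraries and 0, 1 and 2 in the EAF1-mutant libraries. These are 5.57, 5.60 and 4.52 CPM in wild-type cells, and 0, 0.0180 and 0.0289 CPM in EAF1-mutant cells. All wild-type libraries lay far above all EAF1-mutant libraries. In bulk RNA, fewer cells with a transcript and less of it per cell cannot be told apart. The means were 5.23 ± 0.614 CPM (SD, n = 3) and 0.0156 ± 0.0146 CPM (SD, n = 3). Over the pooled counts of 840 and 3, the wild-type level was 321.2 times the EAF1-mutant level, with an exact 95% interval from 109.5 to 1561 that covers counting error only. The size of the fold rests on these few counts. The fitted log2 fold change of TNFRSF10D was -8.15 with all libraries, -8.90 without EAF1-mutant replicate 3 and -7.64 without EAF1-mutant replicate 1. A library with no count allows up to 0.0503 CPM at the depth of EAF1-mutant replicate 1, taking 3 counts as the limit.

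Few genes of similar level had this pattern. Of 4338 genes with a wild-type mean between 2.61 and 10.5 CPM, which is from 0.5 to 2 times that of TNFRSF10D, 4 had an EAF1-mutant mean under 0.01 of their own wild-type mean, TNFRSF10D included. DTX3 (chromosome 12), of the Deltex family of ubiquitin ligases, was nearest in wild-type level, with 4.88 ± 0.503 CPM in wild-type cells (SD, n = 3) against 0.0436 CPM in EAF1-mutant cells. MAGEA2 and MAGEA2B, cancer-testis antigen genes on chromosome X, had wild-type means of 4.79 and 4.45 CPM and EAF1-mutant means of 0.0208 and 0.0160 CPM. MAGEA2 and MAGEA2B are near-identical copies, so how reads were divided between them is uncertain. The measure of likeness was the difference from TNFRSF10D in log2 mean level over the 3 wild-type libraries, which was -0.10 for DTX3, -0.13 for MAGEA2 and -0.23 for MAGEA2B.

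**Figure D1:**
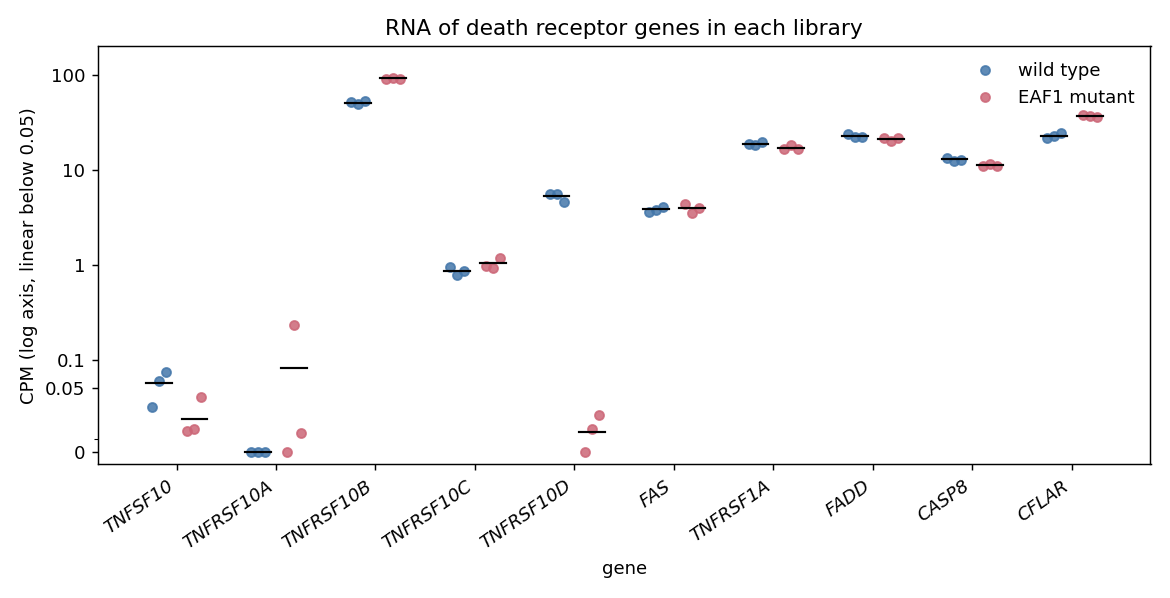
CPM of the 10 genes in each library, on an axis that is logarithmic above 0.05 CPM and linear below it; points are libraries (3 wild type, 3 EAF1 mutant) and black lines are group means. TNFRSF10D falls from between 4.52 and 5.60 CPM to at most 0.0289 CPM, while TNFRSF10B and CFLAR lie higher in every EAF1-mutant library than in any wild-type library.

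TNFRSF10B (ENSG00000120889), which encodes the TRAIL death receptor DR5, rose in EAF1-mutant cells. Its wild-type libraries had 51.2, 48.9 and 52.2 CPM and its EAF1-mutant libraries 90.8, 92.2 and 90.4 CPM. The groups did not overlap, and the libraries within each lay close together. The mean was 1.80 times the wild-type mean, a log2 fold change of 0.84 ± 0.04 (SE, edgeR, adjusted p = 1.92e-14, n = 3 in each group). On the opposite strand, the overlapping gene RHOBTB2 had 11.4 ± 0.248 CPM in wild-type cells, compared with 11.5 ± 0.729 CPM in the mutant line (SD, n = 3). An overlapping long noncoding RNA gene, ENSG00000246130, had 0.330 and 0.831 CPM. The library kit keeps strand, but the strand setting of the authors' counting was not stated in the methods or labels, so reads of a member and of a gene on its other strand cannot be told apart with certainty.

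TNFRSF10A (ENSG00000104689), which encodes the other TRAIL death receptor, DR4, had no count in the wild-type libraries and 0, 13 and 1 counts in the EAF1-mutant libraries. EAF1-mutant replicate 2 held 13 of the 14 counts. The gene was below the filter and was not tested. TNFRSF10C (ENSG00000173535), a decoy receptor held to the membrane by a lipid anchor, had 0.937, 0.771 and 0.859 CPM across the wild-type libraries, against 0.973, 0.934 and 1.19 across those of the mutant. The groups overlapped, and the log2 fold change of 0.27 ± 0.18 (SE, edgeR, adjusted p = 0.215) did not pass the threshold. TNFRSF10C shares its strand with ENSG00000284956 and ENSG00000284948, annotated over the same stretch at 0.980 and 1.34 CPM in wild-type cells, which makes its own counts uncertain.

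Per kilobase of the canonical transcript, the summed RNA of the TRAIL receptors was 14.8 ± 0.370 CPM per kb in wild-type cells and 23.6 ± 0.220 CPM per kb in EAF1-mutant cells (SD, n = 3). The decoy receptors together made up 14.9%, 14.9% and 12.7% of it in the wild-type libraries and 2.98%, 2.83% and 3.66% in the EAF1-mutant libraries. TNFRSF10D alone made up 10.5%, 11.0% and 8.55% in wild-type libraries. Within this sum, the remaining decoy RNA of EAF1-mutant cells was nearly all TNFRSF10C. The share of TNFRSF10C was 4.14% ± 0.306 in wild-type and 3.14% ± 0.428 in EAF1-mutant cells (SD, n = 3). The soluble decoy receptor genes TNFRSF11B and TNFRSF6B, described below, were not part of the sum. TNFRSF10B made up 85.8% ± 1.28 in wild-type and 96.7% ± 0.359 in EAF1-mutant cells. These shares contain the value that chose the list and were not tested. With merged exons in place of the canonical transcript, the decoy share was 16.7% in wild-type and 3.56% in EAF1-mutant cells.

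**Figure D2:**
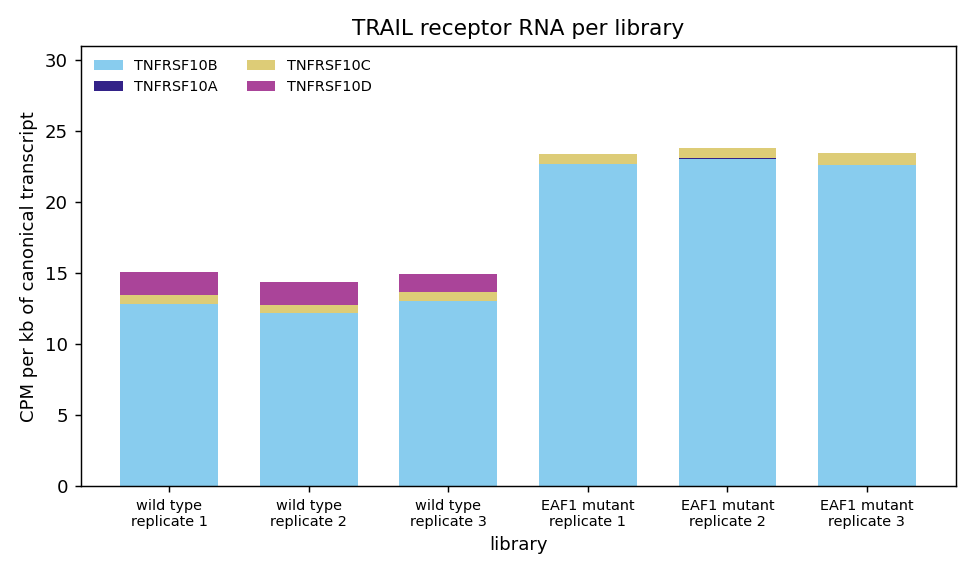
Stacked level of the TRAIL receptor genes in each library, in CPM per kb of the canonical transcript; each bar is 1 library and each colour 1 gene. TNFRSF10B makes up most of every bar, and the TNFRSF10D segment, 10.5%, 11.0% and 8.55% of the wild-type bars, is not visible in the EAF1-mutant bars.

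The RNA of neighbouring genes that could be tested was still present in EAF1-mutant cells. TNFRSF10A, with no wild-type count, could not show a loss. Within 1 Mb of the start of TNFRSF10D lie 27 other protein-coding genes, of which 22 were tested. Of the 22, 3 were called higher by edgeR, TNFRSF10B and STC1 among them, and 0 were called lower. These are 13.6% and 0%, against 11% and 9.36% over all tested genes. At an unadjusted p under 0.05 in edgeR, 5 of the 22 were below 0, and DESeq2 also called 0 lower. Without wild-type replicate 2, or without EAF1-mutant replicate 3, 1 gene was called lower, PDLIM2, a gene noted after its values were seen, with log2 fold changes of -0.57 and -0.52. The median log2 fold change of the 22 was 0.02 with TMM and 0.13 with library totals, against 0.01 and 0.13 over all tested genes.

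On the side of TNFRSF10B, the nearest protein-coding genes with a count were TNFRSF10C, ENSG00000284956, TNFRSF10B and PEBP4, whose starts lie -61.1, -79.6, -95.0 and -164.0 kb from that of TNFRSF10D. PEBP4 had 0.0811 CPM in wild-type cells and was not tested. On the other side lie TNFRSF10A at 61.1 kb, CHMP7 at 79.6 kb, R3HCC1 at 106.1 kb and LOXL2 at 261.3 kb. CHMP7, which encodes a subunit of the ESCRT-III membrane scission machinery, had 30.8 ± 1.5 CPM in wild-type cells, compared with 32.2 ± 0.770 CPM in the mutant line (SD, n = 3, log2 fold change 0.06). R3HCC1 had a log2 fold change of -0.11, or 0.0028 with library totals. LOXL2, a lysyl oxidase, had one of -0.44 ± 0.08 (SE, edgeR, adjusted p = 9.33e-05), which is under the limit on the fold change. STC1, which encodes a secreted glycoprotein and was named after its values were seen, had 0.0807 CPM in wild-type cells, compared with 0.321 CPM in the mutant line. STC1 passed the filter on low counts only through the mutant group. Over the short arm of chromosome 8, the 186 tested protein-coding genes other than TNFRSF10D had a median log2 fold change of 0.08, with 28 called higher and 10 lower, which is 15.1% and 5.38%, against 11% and 9.36% over all tested genes.

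**Figure D3:**
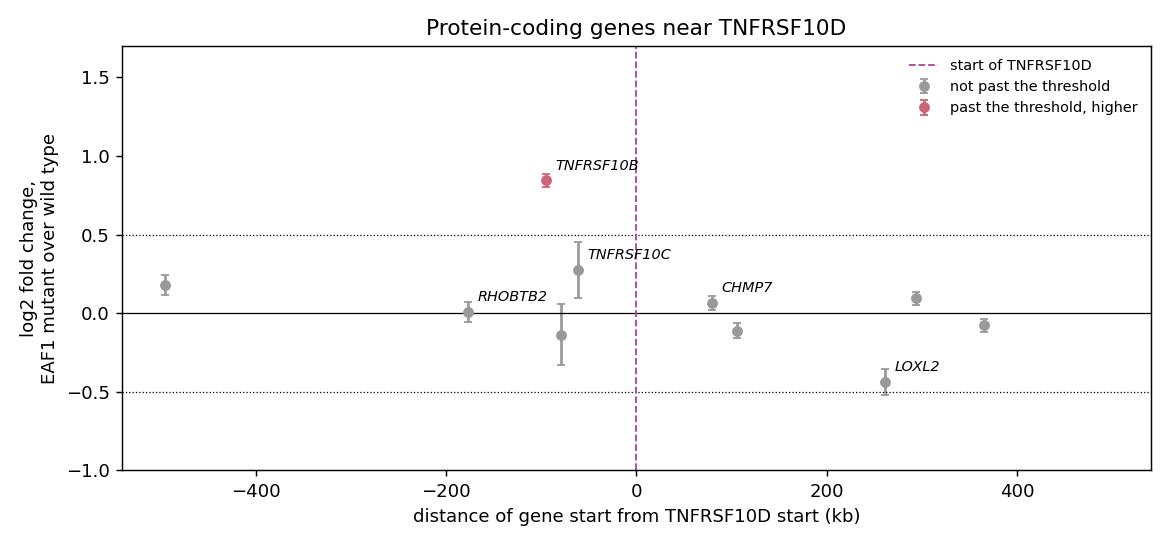
Log2 fold change (EAF1 mutant over wild type, error bars are standard errors) of the 10 tested protein-coding genes whose start lies within 500 kb of that of TNFRSF10D, against the distance in kb. Dotted lines mark a log2 fold change of 0.5 in either direction; TNFRSF10B lies above the upper line, and the other genes shown lie between the lines.

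Of the other receptors, FAS (ENSG00000026103, chromosome 10, 88953813 to 89029605 in GRCh38) had 3.59, 3.80 and 4.07 CPM across the wild-type libraries, against 4.33, 3.52 and 3.92 across those of the mutant. The groups overlapped, with a log2 fold change of 0.04 ± 0.10 (SE, edgeR, adjusted p = 0.762). STAMBPL1, which overlaps FAS on the same strand, had 8.11 CPM in wild-type cells, compared with 9.65 CPM in the mutant line, and ACTA2, on the other strand, had 1.19 and 1.42 CPM in the same order, which makes the counts of FAS uncertain. TNFRSF1A (ENSG00000067182, chromosome 12, 6328757 to 6342114) had 18.6, 18.01 and 19.3 CPM across the wild-type libraries, against 16.3, 18.2 and 16.5 across those of the mutant. Its log2 fold change of -0.13 did not pass the threshold (adjusted p = 0.0479, edgeR) and was -0.02 with library totals (adjusted p = 0.805). The ligand gene TNFSF10 (ENSG00000121858, chromosome 3, 172505508 to 172523475) had 2, 3 and 4 counts in wild-type and 1, 1 and 3 in EAF1-mutant libraries, too few to test.

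Neither the adaptor nor the initiator caspase passed the threshold. FADD (ENSG00000168040, chromosome 11, 70203296 to 70207390) had 23.5, 21.97 and 22.1 CPM across the wild-type libraries, against 21.3, 20.1 and 21.6 across those of the mutant. Its log2 fold change was -0.10 (adjusted p = 0.105, edgeR) and turned to 0.0167 with library totals. A long noncoding RNA gene on the other strand, ENSG00000254721, had 19.5 ± 0.840 CPM in wild-type cells (SD, n = 3), a level near that of FADD. CASP8 (ENSG00000064012, chromosome 2, 201233443 to 201361836) had 13.4, 12.4 and 12.6 CPM across the wild-type libraries, against 11.0, 11.4 and 10.8 across those of the mutant. All EAF1-mutant libraries lay below the wild-type ones, yet the log2 fold change of -0.21 ± 0.06 (SE, edgeR, adjusted p = 0.00591) was under the limit on the fold change. It was -0.09 with library totals (adjusted p = 0.209), and the adjusted p in DESeq2 was 0.0174. FLACC1, on the other strand of CASP8, had 1.06 CPM in wild-type cells, compared with 0.622 CPM in the mutant line (log2 fold change -0.76, adjusted p = 0.00228), and its part in the counts of CASP8 was not tested.

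CFLAR (ENSG00000003402, chromosome 2, 201116154 to 201176687), the gene of c-FLIP, rose. Its wild-type libraries had 21.3, 22.7 and 24.5 CPM and its EAF1-mutant libraries 37.3, 36.3 and 35.4 CPM. The groups did not overlap, and the mean was 1.59 times the wild-type mean, with a log2 fold change of 0.67 ± 0.05 (SE, edgeR, adjusted p = 8.25e-11). Genes annotated across CFLAR had changes of similar size, such as CFLAR-AS1 on the other strand, from 3.70 to 5.15 CPM, and ENSG00000234431 on the same strand, from 1.05 to 1.60 CPM. The share of CFLAR counts that belongs to them was not tested. The ratio of CFLAR to CASP8 counts was 1.59, 1.83 and 1.95 in wild-type and 3.39, 3.17 and 3.27 in EAF1-mutant libraries. Per kilobase of canonical transcript, the ratio was higher by 0.88 on the log2 scale, or 1.84 times (two-sided exact permutation test over 6 libraries, p = 0.1, the smallest that 3 against 3 libraries can give, so it cannot pass 0.05).

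Compared per kilobase of the canonical transcript, wild-type levels ran in the order FADD, TNFRSF10B, TNFRSF1A, CASP8, CFLAR, TNFRSF10D, FAS, TNFRSF10C, TNFSF10 and TNFRSF10A, from 13.2 CPM per kb for FADD to 0. The libraries of FADD and TNFRSF10B overlapped, at 13.2 ± 0.503 and 12.7 ± 0.421 CPM per kb (SD, n = 3), and so did those of CFLAR and TNFRSF10D, at 1.56 ± 0.110 and 1.48 ± 0.174 CPM per kb. The other neighbours in this order did not overlap. In EAF1-mutant cells TNFRSF10B stood first with 22.8 CPM per kb, ahead of FADD with 12.3. TNFRSF10A, TNFSF10 and TNFRSF10D, with 14, 5 and 3 counts over the EAF1-mutant libraries, are too low there to be put in order. With merged exons, which are long for FAS and CFLAR, FAS moved below TNFRSF10C in both groups, and CFLAR moved below TNFRSF10D in wild-type cells and above CASP8 in EAF1-mutant cells, where the libraries of CFLAR and CASP8 overlapped.

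CFLAR is a textbook target of NF-kB, so promoter sequence is shown for it and for CASP8, its partner in the complex, which did not pass the threshold. The sequences are the 250 bases before a RefSeq gene start in GRCh38.p14, on the plus strand, written 5′ to 3′. Capitals mark matches to GGGNNTTCC, a short form of the kappa B motif searched on both strands. The CFLAR stretch is chr2:201118466-201118715, and the CASP8 stretch is chr2:201233213-201233462.
CFLAR: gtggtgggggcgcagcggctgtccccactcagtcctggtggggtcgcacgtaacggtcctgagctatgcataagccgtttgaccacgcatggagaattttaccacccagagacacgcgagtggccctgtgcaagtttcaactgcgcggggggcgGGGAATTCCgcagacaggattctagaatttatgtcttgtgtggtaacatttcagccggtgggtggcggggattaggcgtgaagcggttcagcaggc
CASP8: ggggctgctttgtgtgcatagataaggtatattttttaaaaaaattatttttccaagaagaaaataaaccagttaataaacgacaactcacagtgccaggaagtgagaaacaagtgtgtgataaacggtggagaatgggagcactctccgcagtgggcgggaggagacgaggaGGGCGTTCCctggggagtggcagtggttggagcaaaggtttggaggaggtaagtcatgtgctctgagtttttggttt
The match lies 96 bases before the start in CFLAR and 77 bases before it in CASP8. For each gene the stretch shown is the one that holds a match. The other 3 CFLAR starts and the other 2 CASP8 starts of the table had none. Of the 10 members, 6 had a promoter in the table, with 13 windows in all, and 3 of these held the motif, the third being 1 of the FAS windows. Of all 35116 windows of this length, 5.78% held it. A match is a description of the letters and not a measured site.

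The other genes of the pathway were 100 genes in 11 lists, of which 88 were tested. Of these, 20 were called higher and 8 lower, which is 22.7% and 9.09%, against 11% and 9.36% over all tested genes. Their median log2 fold change was 0.09, against 0.01 over all tested genes. With library totals these medians were 0.21 and 0.13. With a filter of at least 1 CPM in 3 libraries, 17 pathway genes were called higher and 8 lower. Over the whole table, 2332 genes were higher and 2125 lower with that filter. Death ligands other than TRAIL (FASLG, TNF, LTA and TNFSF15) and the necroptosis genes RIPK3, MLKL and ZBP1 were all below the filter on low counts. Among 4 other death-domain receptors, 1 was called higher and 0 lower, or 25% and 0%, against the same 11% and 9.36%. NGFR, the p75 neurotrophin receptor, rose from 0.490 ± 0.0492 to 1.52 ± 0.269 CPM (SD, n = 3, log2 fold change 1.63), and TNFRSF25, TNFRSF21 and EDAR did not pass the threshold. Of the soluble decoy receptor genes, TNFRSF6B did not pass. TNFRSF11B, which encodes osteoprotegerin and was picked out after its values were seen, had 1, 0 and 0 counts in the wild-type libraries and 35, 22 and 36 in the EAF1-mutant libraries. TNFRSF11B passed the filter on low counts only through the mutant group. Without wild-type replicate 1 the wild-type count is 0, so no fold is given.

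Among 14 partners of the receptor complex, 2 were called higher and 1 lower, which is 14.3% and 7.14% against the same 11% and 9.36%, with a median of -0.03, or 0.08 with library totals. BIRC3, which encodes the ubiquitin ligase cIAP2, rose from 0.444 ± 0.103 to 1.78 ± 0.193 CPM (SD, n = 3, log2 fold change 2.00). TRAF2, the adaptor of the TNF receptor complex, rose from 26.6 ± 1.83 to 39.0 ± 1.41 CPM (log2 fold change 0.55), a call lost without wild-type replicate 2, where the value was 0.495. CASP10, the initiator caspase closest to CASP8, fell from 7.49 ± 0.365 to 3.93 ± 0.0797 CPM, with edgeR's adjusted p = 1.91e-09 at a log2 fold change of -0.93. RIPK1 had 29.2 ± 0.604 CPM in wild-type cells, compared with 40.6 ± 0.713 CPM in the mutant line (SD, n = 3), with no overlap. Its log2 fold change of 0.48 (adjusted p = 1.66e-09, edgeR) was under the limit on the fold change. So was that of RNF31, at -0.37 (adjusted p = 2.88e-06, edgeR). FAF1, the other linear ubiquitin ligase genes RBCK1 and SHARPIN, and the rest did not pass either, with RBCK1 at -0.03.

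Of 11 genes of downstream caspases and the mitochondrial arm, 1 was called higher and 1 lower. This is 9.09% each, against 11% and 9.36% over all tested genes, with a median of 0.09, or 0.21 with library totals. CASP9, the initiator caspase of the apoptosome, rose from 8.92 ± 0.566 to 13.1 ± 0.471 CPM (SD, n = 3), and CASP2 fell from 71.7 ± 2.93 to 43.5 ± 0.356 CPM. CASP6, a caspase that acts downstream of the initiators, and BID, which links death receptors to mitochondria, did not pass the threshold. Of 14 tested BCL2 family genes, 5 were called higher and 1 lower, which is 35.7% and 7.14%, against 11% and 9.36% over all tested genes, with a median of 0.32, or 0.44 with library totals. The higher ones with the largest changes encode BH3-only proteins, which promote apoptosis by binding BCL2 relatives. PMAIP1 rose from 70.6 ± 3.65 to 171.3 ± 6.53 CPM (log2 fold change 1.28), HRK from 10.5 ± 1.25 to 24.2 ± 0.875 CPM, and BMF from 4.92 ± 0.416 to 10.7 ± 0.695 CPM. BBC3 and BOK were the remaining higher genes and MCL1, which restrains apoptosis, the lower one; these were named after their values were seen. MCL1 had 218.8 CPM in wild-type cells, compared with 152.8 CPM in the mutant line, a log2 fold change of -0.52 that became -0.40 with library totals, where the call was lost. The call of BOK, at a log2 fold change of 0.97, was lost without wild-type replicate 3 (adjusted p = 0.0146), EAF1-mutant replicate 1 (0.0126) or EAF1-mutant replicate 2 (0.0195).

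A further list holds target genes of p53, which SV40 large T antigen binds in HEK293T cells. Of 18 p53 target genes, all tested, 8 were called higher and 1 lower, which is 44.4% and 5.56%, against 11% and 9.36% over all tested genes. Their median log2 fold change was 0.26, or 0.38 with library totals. Among the 8 is GDF15, with 6, 5 and 2 counts in wild-type and 20, 16 and 25 in EAF1-mutant libraries. GDF15 passed the filter on low counts only through the mutant group. CDKN1A, the cyclin-dependent kinase inhibitor p21, rose from 10.4 ± 0.826 to 44.9 ± 0.567 CPM (SD, n = 3), with edgeR's adjusted p = 3.81e-19 at a log2 fold change of 2.10. TP53INP1 rose from 8.57 ± 0.469 to 36.2 ± 0.939 CPM (log2 fold change 2.08). The other 9 targets did not pass the threshold. Among them, named after their values were seen, SESN2 and BTG2 had log2 fold changes of -0.32 and -0.29. SESN1, TIGAR and CCNG1 had -0.03, 0.03 and 0.0023. Whether p53 activity differed between the groups was not tested. XPC, a DNA damage sensor of nucleotide excision repair, fell from 53.1 ± 2.67 to 16.9 ± 0.425 CPM (log2 fold change -1.65). XPC lies on the short arm of chromosome 3, whose 425 tested protein-coding genes, looked at after the value of XPC was seen, had a median log2 fold change of -0.83, whose part in the value of XPC was not tested. EAF1 itself (chromosome 3, 15427598 to 15450635) lies there too, with 57.4, 58.3 and 56.4 CPM in wild-type and 19.6, 17.9 and 18.7 CPM in EAF1-mutant libraries. A point mutation leaves the RNA countable, so this does not check the labels.

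Of 8 tested NF-kB target genes, 1 was called higher and 0 lower. These are 12.5% and 0%, against 11% and 9.36% over all tested genes. Their median log2 fold change was -0.05, or 0.07 with library totals. RELB, an NF-kB subunit, rose from 0.894 ± 0.0934 to 1.99 ± 0.188 CPM (SD, n = 3, log2 fold change 1.14), while NFKBIA, NFKB2 and the others did not pass. Of 9 tested interferon targets, 1 was called higher and 1 lower, or 11.1% each, against the same 11% and 9.36%. Their median was 0.09, or 0.21 with library totals. IFIT1 fell from 3.87 ± 0.414 to 2.40 ± 0.217 CPM. IFI6 rose from 1.80 ± 0.233 to 2.74 ± 0.0745 CPM, a call lost without wild-type replicate 2 (log2 fold change 0.499 in place of 0.61). Of 8 ER stress genes, 3 were called lower (37.5%, against 9.36% over all tested genes), with a median of -0.39, or -0.28 with library totals. ASNS, asparagine synthetase, fell from 158.6 ± 5.28 to 68.2 ± 1.59 CPM, CHAC1, a glutathione-degrading enzyme, from 4.47 ± 0.0366 to 2.17 ± 0.127 CPM, and ATF4, the transcription factor of the integrated stress response, from 466.5 ± 11.4 to 290.4 ± 6.00 CPM. DDIT3, the transcription factor CHOP, which can activate TNFRSF10B, had 15.5 ± 0.184 and 16.5 ± 0.284 CPM and did not pass.

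**Figure D4:**
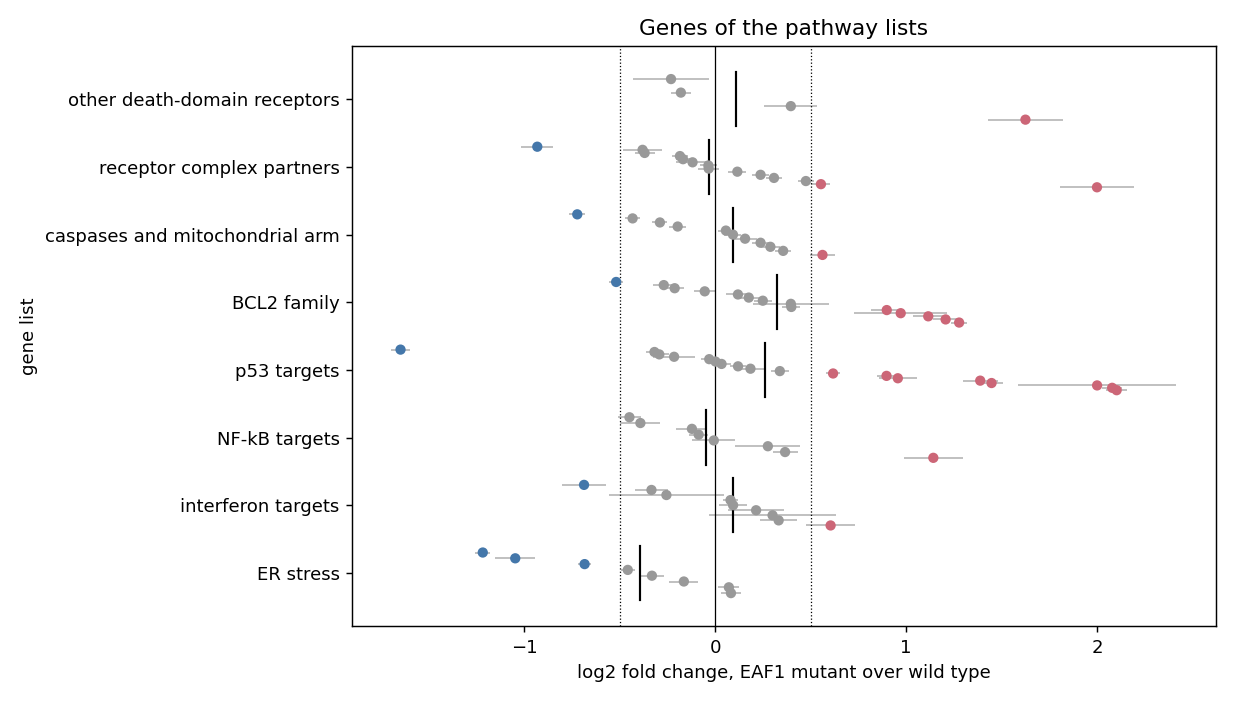
Log2 fold change (EAF1 mutant over wild type) of each tested gene in 8 pathway lists; points are genes, grey bars standard errors and black lines list medians. Red and blue points passed the threshold as higher and lower, and dotted lines mark a log2 fold change of 0.5 in either direction. The p53 targets and the BCL2 family have medians of 0.26 and 0.32, and the ER stress genes one of -0.39.

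Markers of the cell line were present in both groups. Among the genes listed for HEK293T, NEFM and VIM were called lower and KRT8 and KRT18 higher in EAF1-mutant cells, and VIM had 380.2 CPM in wild-type cells, compared with 199.3 CPM in the mutant line. The blood markers PTPRC, CD3E and LYZ and the endothelial markers PECAM1 and CDH5 were under 0.2 CPM in both groups. COL1A1 had a mean of 2.85 CPM in wild-type cells, against 4.15 in the mutant line, and was called higher, a call lost without wild-type replicate 1 (log2 fold change 0.40 in place of 0.54), while the fibroblast markers COL1A2 and PDGFRB were also under 0.2 CPM. The intestinal genes CDX2 and VIL1 had 18.7 and 26.4 CPM in wild-type and 16.4 and 29.8 CPM in EAF1-mutant cells, with CEACAM5 near 0. How far the shifts of the cell line's own markers go with the changes of the pathway genes was not tested.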

How the data were processed

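Total RNA of 3 wild-type and 3 EAF1-mutant samples was depleted of ribosomal RNA and sequenced in pairs. The authors mapped the reads to GRCh38 with hisat2, counted them per Ensembl gene with Rsubread and deposited the raw counts. Neither the methods nor the labels state its settings for strand and multi-mapping reads. The deposited table of ELL ChIP-seq holds no member and was not used.

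Low counts were removed with filterByExpr, libraries were scaled by TMM, and the 28025 remaining genes were compared by quasi-likelihood tests with Benjamini-Hochberg adjustment, all with edgeR 4.0.16 (R 4.3.3). Library totals ran from 52541541 to 66611451, and the biological coefficient of variation was 4.11%. On simulated counts of this comparison with 27913 genes tested, 97 of 100 genes changed by a log2 of 0.75 and 100 of 100 changed by 1.5 were recovered. The changed genes were drawn only from genes above a minimum expected count, and every gene had the same dispersion. Recovery at low counts, or for genes that vary more, was therefore not measured. Positions, gene types and transcript lengths came from GENCODE 44, which matched 57754 genes. The exact permutation test used scipy 1.17.1.

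The members and lists were chosen with earlier results of these data known. Named genes were the members, the 4 protein-coding genes with a count on each side of TNFRSF10D, up to 3 genes per list with the largest changes past the threshold and at least 1 CPM, genes with a pattern like TNFRSF10D, and EAF1. The alternatives were DESeq2 1.42.0, library totals, other filters, a replicate block, each library left out, and a looser threshold. Some genes of the lists and of the neighbourhood are not reported here.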

Additional observations from a re-analysis of the deposited data

How the results depend on the processing

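TNFRSF10B and CFLAR stayed higher past the threshold under DESeq2, library totals, both other filters, the replicate block and each library left out. With 1 library left out, the log2 fold change ran from 0.81 to 0.85 for TNFRSF10B and from 0.61 to 0.71 for CFLAR, and the CFLAR to CASP8 ratio from 0.79 to 0.94. That of FAS, 0.04, ran from -0.03 to 0.11, below 0 at -0.0156 without wild-type replicate 1 and -0.0324 without EAF1-mutant replicate 1. FADD turned to 0.0167 with library totals. With no filter, TNFRSF10A was also called higher, on counts of which EAF1-mutant replicate 2 held 13 of 14. Alternatives for named genes other than the members were chosen after seeing the data; among them R3HCC1 turned to 0.0028 with library totals and ENSG00000284956 to 0.0885 without wild-type replicate 1, within a range from -0.29 to 0.09 over the libraries left out. MCL1 lost its call with library totals, BOK without wild-type replicate 3 and without EAF1-mutant replicates 1 or 2, COL1A1 without wild-type replicate 1, and TRAF2 and IFI6 without wild-type replicate 2, while PDLIM2 was called lower without wild-type replicate 2 or EAF1-mutant replicate 3. The cause was not tested.

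The looser threshold, an adjusted p under 0.05 with no limit on the fold change, lets smaller changes pass. With it, 7170 of the 28025 tested genes were lower and 7250 higher. Of the 8 tested members, 3 were lower, with TNFRSF10D counted, whose values chose the list, and 2 were higher. Of the 88 tested pathway genes, 25 were lower and 38 higher. Of the 22 tested genes near TNFRSF10D, 3 were lower and 5 higher. Whether these shares differ from those over all tested genes was not tested. With 1 library left out, from 0 to 1 gene near TNFRSF10D was lower.

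Libraries with the same replicate number did not deviate together, with correlations of -0.0054, -0.0166 and 0.0097, so the numbers were not taken as pairs. With a replicate block, 2631 genes were lower and 3055 higher. Depth limits TNFRSF10A, TNFSF10 and the ligand genes, which are too low to test.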
